A study of Mus musculus with 16 samples.

Results

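The genes described here are 45 genes of blood and lymphatic endothelium, the cells that line vessels, measured in whole ovaries of mice with and without estrogen receptors. They were chosen by name: a probe belonged to a gene when its file symbol, or the current symbol of its accession, was on the list, and the brightest of a gene's probes stood for it. The 45 genes had 83 probes on the array, and 44 of them entered the test among 24372 features in all. The exception was Sele, a leukocyte adhesion receptor of activated endothelium, which was well above background on 1 of the 16 arrays (Ex3aERKO 4, at -2.67). The other 44 genes were well above background on all 16 arrays.

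By its title, the study concerned the roles of ERα (Esr1) and ERβ (Esr2) when granulosa cells of aged ovaries change toward another cell type. RNA came from whole ovaries of mice aged 1 year, with 4 single-colour arrays in each of 4 groups. The control ovaries had one allele of each receptor and so were themselves not wild type. Ex3aERKO ovaries came from ERα knockout mice, Ex3bERKO ovaries from ERβ knockout mice, and Ex3abERKO ovaries from mice that lacked both receptors. The labels give no strain, treatment or estrous stage. Nor do they tell whether samples of a group are different animals; the p-values thus speak of the spread among these samples, which could be technical. In whole tissue, fewer endothelial cells and less RNA of a gene per cell cannot be told apart.

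Vessel growth is driven mainly by VEGF ligands, of which Vegfa is made in the ovary largely by granulosa and luteal cells, acting on the receptors Kdr and Flt1 on endothelial cells. Angiopoietins and their receptor Tek stabilise or loosen vessels, and apelin, Notch and adrenomedullin signalling shape sprouting and vessel calibre. Endothelial identity is held by ETS factors such as Erg and by the SOXF factors Sox7, Sox17 and Sox18. The adult ovary is unusual in that its vessels grow and regress with each follicle and corpus luteum.

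A level is the log2 of a probe's signal over the 75th percentile of its array, and differences are on the same log2 scale, given ± the standard error of the model. The 75th percentile lay between 1211 and 1806, with 80.4% to 87.6% of the spots well above background. Esr1 lay between -0.32 and 0.20 on the control arrays, -3.66 and -1.89 in Ex3aERKO, -1.06 and 0.34 on the arrays labelled Ex3bERKO, and -2.11 and -1.04 on those labelled Ex3abERKO. Esr2 ranged from -0.33 to 0.34 in control and -2.54 to -1.61 in Ex3abERKO, but from -0.58 to 1.00 in Ex3bERKO, where it overlapped control. Whether the Esr2 probe lies in the deleted part is not given in the sources used here, so its level does not check the ERβ genotype. Of the 9 defining endothelial markers (Pecam1, Cdh5, Kdr, Tek, Tie1, Cldn5, Esam, Robo4 and Erg), all were above background on every array. Ex3aERKO 2 stood apart in liver albumin (Alb at 6.13, against -6.42 to -4.11 on the other 15 arrays). Ex3abERKO 2 stood apart in oviduct genes (Ovgp1 at 5.43 and Foxj1 at 1.95). Control 4 stood apart from the other controls in haemoglobin (Hba-a1 at 7.0, against 3.20 to 3.87). Results are therefore given with and without these 3 arrays. Hba-a1 was also high where ERα was lacking: every Ex3aERKO array reached at least 4.83, and every Ex3abERKO array at least 5.02. Leaving out the 3 arrays raised the median difference from control of 5 erythroid markers from 1.35 to 2.03 in Ex3aERKO. For Ex3abERKO it went from 0.93 to 1.99. The part of blood content in the results was not tested.

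In Ex3aERKO ovaries, 18 of the 44 endothelial genes fell and 3 rose against control. Across all features tested, 8.06% were called, 4.2% lower and 3.86% higher. The median difference of the endothelial genes was -0.57, against -0.083 over all features. The 18 covered the junction genes Pecam1 and Cdh5, the VEGF receptors Kdr and Flt1, the apelin receptor Aplnr, 4 of 5 transcription factors and the ligands Vegfa, Egfl7 and Dll4. The genes that rose were Vcam1, Pdpn and Cd34. In 22 genes all 4 Ex3aERKO arrays lay below all 4 control arrays, and in 4 they lay above, against 9.5% and 7.44% of all features. Without the 3 arrays that stand apart the median was -0.58, all 21 called genes kept their direction, and 9 were called, all of them among the 21 (Cdh5, Egfl7, Erg, Sox18, Icam2, Vegfa, Aplnr and Dll4 lower, Vcam1 higher).

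In Ex3bERKO ovaries, 1 of the 44 genes was called, Vegfa, which fell. Over all features 0.656% fell and 0.398% rose. The median difference was -0.24, against 0.01 over all features, and 30 of the 44 differences were below 0. In 5 genes (Egfl7, Icam2, Vegfa, Aplnr and Dll4) every Ex3bERKO array lay below every control array, and in 2 (Angpt2 and Lyve1) above, against 4.24% and 3.77% of all features. The other 43 genes had adjusted p-values between 0.0823 and 0.999, which does not show that they were unchanged.

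In Ex3abERKO ovaries, 14 of the 44 genes fell and 5 rose, where 11.7% of all features fell and 10.7% rose. The share that rose is near that background. The median difference was -0.23, against -0.105 over all features. Vegfa, Aplnr, Apln, Nos3, Sox18, Sox7, Tie1 and Icam2 fell by over 1 on the log2 scale, and Lyve1, Icam1, Pdpn, Vwf and Cd34 rose. Every Ex3abERKO array lay below every control array in 16 genes and above in 6, against 13.4% and 11.6% of all features. Without the 3 arrays that stand apart the median was -0.21 and 13 genes were called, all among the 19 (Tie1, Nos3, Egfl7, Sox7, Sox18, Icam2, Vegfa and Aplnr lower, and Vwf, Icam1, Cd34, Lyve1 and Pdpn higher).

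The 3 comparisons share the same 4 control arrays, so genes that moved in more than 1 of them are not independent evidence. Vegfa was the gene called lower in all 3. Another 11 genes were called lower in both Ex3aERKO and Ex3abERKO (Pecam1, Flt1, Tie1, Emcn, Nos3, Egfl7, Sox7, Sox18, Icam2, Aplnr and Dll4). Cdh5, Kdr, Erg, Ets1, Cldn5 and Mmrn2 were called lower in Ex3aERKO alone, and Tek and Apln in Ex3abERKO alone. The 18 genes called in no comparison with control were Flt4, Eng, Esam, Robo4, Sox17, Plvap, Selp, Vegfb, Vegfc, Angpt1, Angpt2, Prox1, Ednrb, Ramp2, Calcrl, Nrp1, Nrp2 and Acvrl1.

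**Figure D1:**
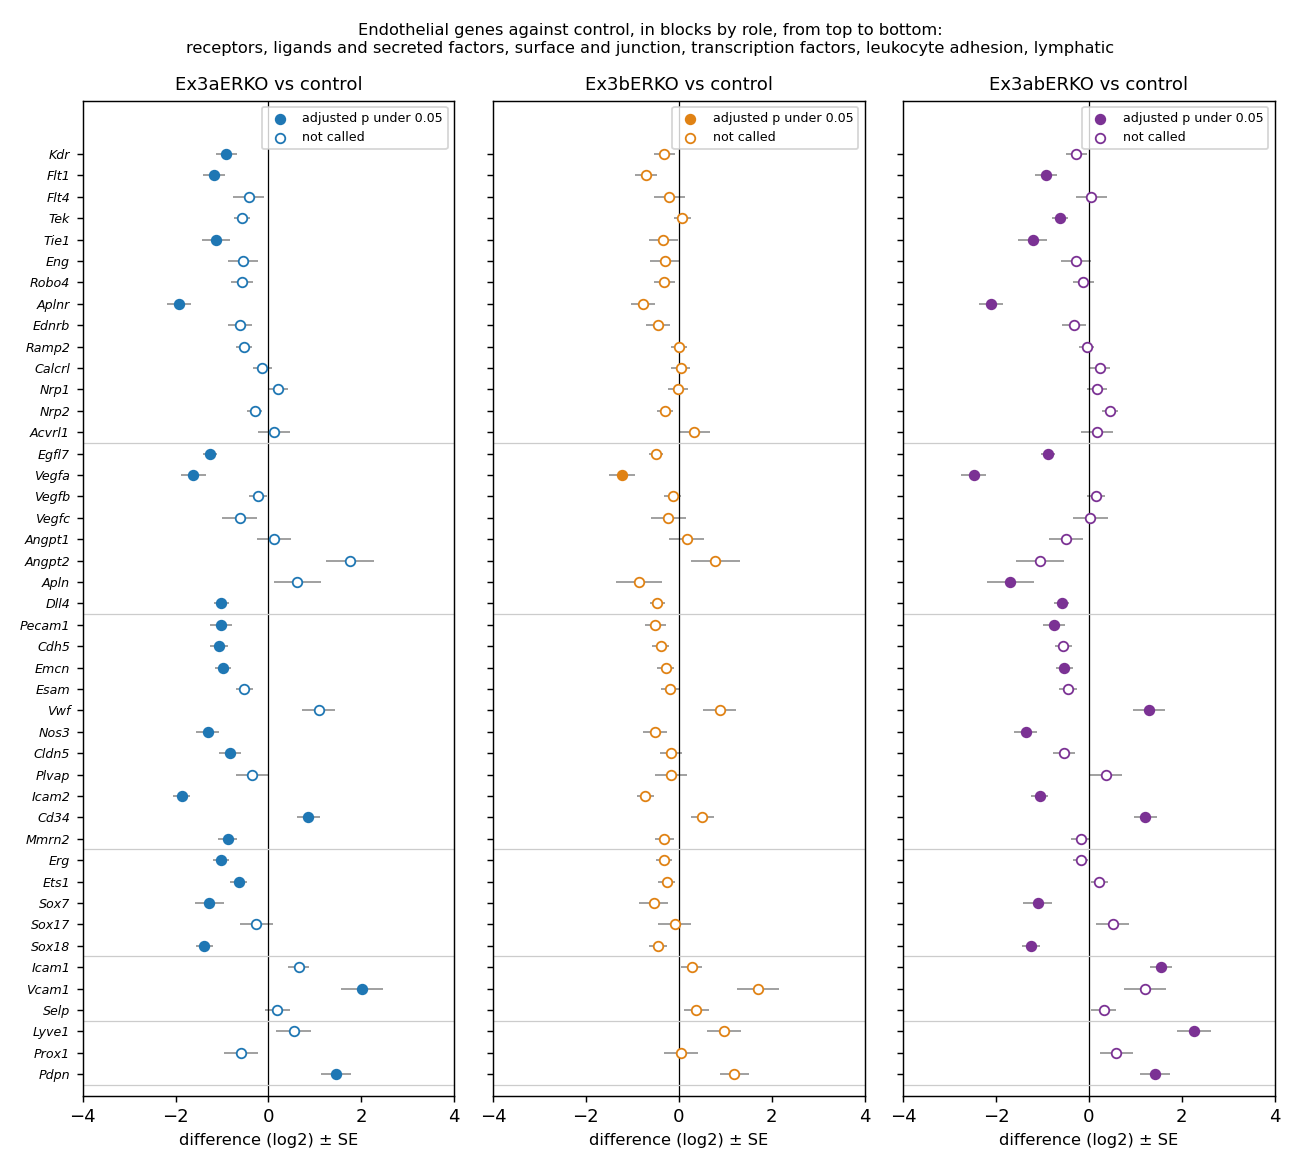
Difference from control (log2, x axis) of each of the 44 tested endothelial genes (y axis, in blocks by role), with the standard error of the model as a bar. Filled points are called (18 lower and 3 higher in Ex3aERKO, 1 lower in Ex3bERKO, 14 lower and 5 higher in Ex3abERKO); open points are not.

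Among the ligands, Vegfa fell most. Its probe lies at chr17:44146842-44146901 (mm7). Its level, given for replicates 1 to 4 in order, was 1.96, 1.55, 1.58 and 2.07 on the control arrays, 0.14, -0.22, 0.13 and 0.64 on those of Ex3aERKO, 1.04, 0.25, -0.05 and 1.07 on those of Ex3bERKO, and -0.63, -0.70, -0.39 and -1.05 on those of Ex3abERKO. All 12 knockout arrays lay below all 4 controls, and all 4 Ex3abERKO arrays lay below every other array. The difference from control was -1.62 ± 0.27 (adjusted p = 0.00213) in Ex3aERKO, a 3.07-fold lower level, and -2.48 ± 0.27 (adjusted p = 5.63e-05) in Ex3abERKO, a 5.59-fold lower level. In Ex3bERKO it was -1.22 ± 0.27 (adjusted p = 0.0416). The Ex3bERKO call was the least firm: it was lost with slide as a block (adjusted p = 0.0764) and without any of control 1, control 3, control 4, Ex3aERKO 1, Ex3aERKO 3, Ex3bERKO 2, Ex3bERKO 3, Ex3abERKO 1 or Ex3abERKO 2 (adjusted p 0.0563 to 0.151), as well as without the 3 arrays that stand apart (adjusted p = 0.225). Within slides, the Ex3aERKO difference ranged from -2.18 to -0.95, that of Ex3bERKO from -1.71 to -0.50 and that of Ex3abERKO from -2.73 to -2.35. Ex3abERKO was also lower than Ex3bERKO (-1.27 ± 0.27, adjusted p = 0.00557). Normexp background correction ended the Ex3bERKO call as well (adjusted p = 0.071). Both other Vegfa probes gave the same directions (-1.77 and -1.38 in Ex3aERKO, -2.74 and -2.26 in Ex3abERKO).

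Angpt2, an angiopoietin made by endothelial cells that loosens vessels, was lower in Ex3abERKO than in either single knockout (probe at chr8:18668127-18668186, mm7). Its level was 1.44, 1.29, 1.02 and 1.38 on the control arrays, 2.14, 2.14, 2.67 and 5.23 on those of Ex3aERKO, 2.19, 1.68, 1.95 and 2.47 on those of Ex3bERKO, and 0.57, 0.00, -0.35 and 0.67 on those of Ex3abERKO. All Ex3aERKO and Ex3bERKO arrays lay above all controls and all Ex3abERKO arrays below them, with Ex3aERKO 4 far above its group. Against control the differences were 1.76 ± 0.52 (adjusted p = 0.053) in Ex3aERKO, 0.79 ± 0.52 (adjusted p = 0.735) in Ex3bERKO and -1.06 ± 0.52 (adjusted p = 0.169) in Ex3abERKO, so none passed the test. Ex3abERKO was lower than Ex3aERKO (-2.83 ± 0.52, adjusted p = 0.00564) and lower than Ex3bERKO (-1.85 ± 0.52, adjusted p = 0.0262). The second of these was lost with slide as a block (adjusted p = 0.0636) and without any of Ex3bERKO 1, Ex3bERKO 3, Ex3bERKO 4, Ex3abERKO 2 or Ex3abERKO 3 (adjusted p 0.052 to 0.0778).

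Apln encodes apelin, a peptide of sprouting tip cells. Its level was 1.02, 0.10, 1.56 and 1.68 on the control arrays, 1.71, 1.81, 1.97 and 1.37 on those of Ex3aERKO, -0.78, 1.59, 1.05 and -0.93 on those of Ex3bERKO, and -0.92, -0.65, -0.13 and -0.71 on those of Ex3abERKO. Ex3abERKO lay below all controls and all Ex3aERKO arrays, and the Ex3bERKO arrays split, with replicates 1 and 4 low and 2 and 3 high. Apln was 3.23-fold lower in Ex3abERKO than in control, -1.69 ± 0.50 (adjusted p = 0.0248), and 4.98-fold lower than in Ex3aERKO, -2.32 ± 0.50 (adjusted p = 0.0122). The first call was lost without any of control 3, control 4, Ex3abERKO 1, Ex3abERKO 2 or Ex3abERKO 4 (adjusted p 0.0531 to 0.0746). A nearly as bright Apln probe gave -1.32 against control and -1.50 against Ex3aERKO.

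Egfl7, a protein secreted by endothelial cells, and Dll4, a Notch ligand of tip cells, completed the ligands that fell. Egfl7 was at 3.49, 3.16, 3.27 and 3.54 on the control arrays, 2.23, 2.01, 2.04 and 2.14 on those of Ex3aERKO, 2.61, 3.05, 2.81 and 3.06 on those of Ex3bERKO, and 2.58, 2.36, 2.29 and 2.72 on those of Ex3abERKO. Every knockout array was lower than every control array. The difference was -1.26 ± 0.15 (adjusted p = 0.000322) in Ex3aERKO and -0.88 ± 0.15 (adjusted p = 0.000997) in Ex3abERKO, and -0.48 ± 0.15 (adjusted p = 0.199) in Ex3bERKO, which was not called. Egfl7 was also lower in Ex3aERKO than in Ex3bERKO (-0.78 ± 0.15, adjusted p = 0.0118), a call lost without Ex3bERKO 4 (adjusted p = 0.0543). Dll4 was at -2.06, -2.57, -2.40 and -2.33 on the control arrays, -3.15, -3.56, -3.55 and -3.19 on those of Ex3aERKO, -2.80, -2.80, -2.96 and -2.63 on those of Ex3bERKO, and -2.74, -3.00, -3.19 and -2.79 on those of Ex3abERKO. Here too the knockout arrays lay below all controls, and Ex3aERKO lay below Ex3bERKO. Dll4 differed by -1.02 ± 0.16 (adjusted p = 0.00167) in Ex3aERKO and -0.59 ± 0.16 (adjusted p = 0.0159) in Ex3abERKO, the latter lost without control 1 (adjusted p = 0.0563) and with normexp background correction (adjusted p = 0.0704). Vegfb and Vegfc, which act on Flt1 and on Flt4, and Angpt1, which activates Tek, were called in no comparison with control, with differences from -0.62 to 0.17.

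**Figure D2:**
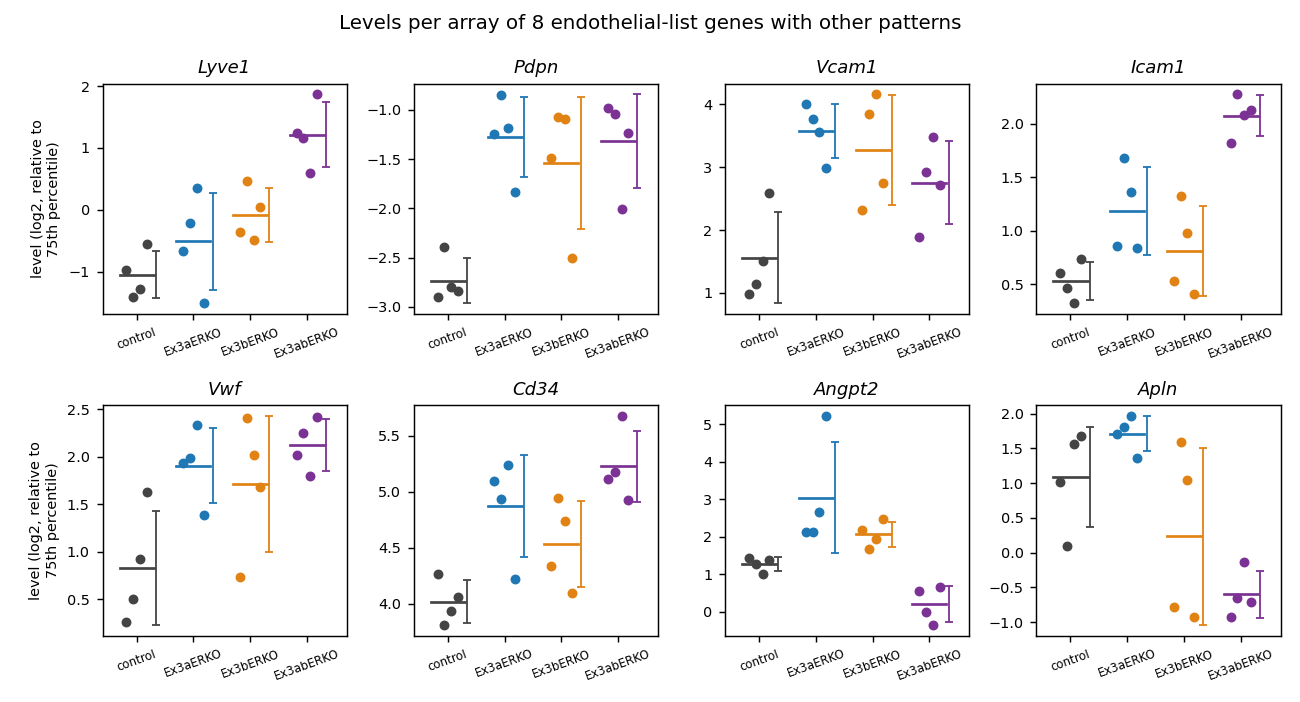
Level of 8 genes on each array (log2 relative to the 75th percentile, y axis) by group (x axis); points are arrays, the line is the group mean and the bar the SD of 4 arrays. Lyve1, Icam1, Vwf and Cd34 lie above control in Ex3abERKO, Vcam1 and Pdpn in Ex3aERKO, and Angpt2 and Apln below control in Ex3abERKO.

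Of 14 receptors, 4 fell in Ex3aERKO and 4 in Ex3abERKO. Aplnr, the apelin receptor, differed most (probe at chr2:84983197-84983256, mm7). Its level was 0.70, 0.33, 0.65 and 0.40 on the control arrays, -1.24, -1.54, -2.0 and -0.81 on those of Ex3aERKO, -0.21, -0.26, -0.60 and 0.08 on those of Ex3bERKO, and -1.25, -1.35, -2.20 and -1.50 on those of Ex3abERKO. All 12 knockout arrays lay below all controls, and Ex3bERKO lay between control and the other groups. The difference was -1.92 ± 0.26 (adjusted p = 0.000567) in Ex3aERKO, 3.79-fold lower, and -2.10 ± 0.26 (adjusted p = 0.000136) in Ex3abERKO, 4.28-fold lower. Ex3bERKO differed from control by -0.77 ± 0.26 (adjusted p = 0.244). Aplnr was also lower in Ex3abERKO than in Ex3bERKO (-1.33 ± 0.26, adjusted p = 0.00352) and in Ex3aERKO than in Ex3bERKO (-1.15 ± 0.26, adjusted p = 0.0281), the latter lost with slide as a block (adjusted p = 0.0723) and without any of Ex3aERKO 1, Ex3aERKO 2, Ex3aERKO 3, Ex3bERKO 1 or Ex3bERKO 4 (adjusted p 0.0511 to 0.111). A dimmer Aplnr probe changed less, by -0.76 in Ex3aERKO and -0.44 in Ex3abERKO.

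The VEGF receptors Flt1 and Kdr both fell in Ex3aERKO. Flt1, which holds VEGF as a decoy, was at 2.60, 1.70, 2.28 and 2.62 on the control arrays, 0.76, 1.06, 1.00 and 1.66 on those of Ex3aERKO, 1.24, 1.49, 1.52 and 2.09 on those of Ex3bERKO, and 1.31, 1.36, 1.45 and 1.40 on those of Ex3abERKO. All Ex3aERKO and Ex3abERKO arrays lay below all controls. The differences were -1.18 ± 0.24 (adjusted p = 0.00769) and -0.92 ± 0.24 (adjusted p = 0.0131). That of Ex3bERKO, -0.71, was not called. Of the 4 other Flt1 probes, the 2 brightest gave like values (-1.19 and -1.11 in Ex3aERKO), and the 2 dimmest did not (-0.01 and 0.14). Kdr, the main signalling receptor, was at 1.59, 1.26, 1.17 and 1.95 on the control arrays, 0.57, 0.75, 0.74 and 0.29 on those of Ex3aERKO, 1.35, 1.51, 0.76 and 1.09 on those of Ex3bERKO, and 1.49, 1.38, 0.69 and 1.32 on those of Ex3abERKO. Its Ex3aERKO arrays lay below all controls, while Ex3abERKO overlapped them. Kdr differed by -0.91 ± 0.23 (adjusted p = 0.0239) in Ex3aERKO, -0.31 ± 0.23 (adjusted p = 0.782) in Ex3bERKO and -0.27 ± 0.23 (adjusted p = 0.455) in Ex3abERKO. The Ex3aERKO call was lost without any of control 1, control 4, Ex3aERKO 1 or Ex3aERKO 4 (adjusted p 0.0512 to 0.0797) and with normexp correction (adjusted p = 0.0694).

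The angiopoietin receptor Tek and its relative Tie1 were lower as well. Tie1 was at -0.56, -0.74, -1.10 and -1.04 on the control arrays, -1.94, -1.98, -2.06 and -1.96 on those of Ex3aERKO, -1.45, -0.86, -1.48 and -0.97 on those of Ex3bERKO, and -1.61, -1.75, -3.30 and -1.61 on those of Ex3abERKO. Both Ex3aERKO and Ex3abERKO lay below all controls, with Ex3abERKO 3 below the rest of its group. It differed by -1.13 ± 0.31 (adjusted p = 0.0388) in Ex3aERKO and -1.21 ± 0.31 (adjusted p = 0.0125) in Ex3abERKO. In Ex3bERKO Tie1 differed by -0.33 and was not called. The Ex3aERKO call held in 8 of 16 fits that each left out 1 array, and was lost without any single control or Ex3aERKO array (adjusted p 0.0551 to 0.106) and with slide as a block (adjusted p = 0.0581). Tek was at -0.93, -1.10, -1.42 and -1.24 on the control arrays, -1.79, -1.70, -1.59 and -1.89 on those of Ex3aERKO, -1.20, -0.81, -1.34 and -1.03 on those of Ex3bERKO, and -1.54, -1.94, -1.50 and -2.17 on those of Ex3abERKO. Ex3abERKO and Ex3aERKO lay below all controls. In Ex3bERKO Tek differed by 0.08 and was not called. Tek fell in Ex3abERKO (-0.62 ± 0.18, adjusted p = 0.0226), a call lost without any of control 1, control 2, Ex3abERKO 2 or Ex3abERKO 4 (adjusted p 0.0549 to 0.0718), and was at -0.57 ± 0.18 (adjusted p = 0.0638) in Ex3aERKO. Against Ex3bERKO, Tek was lower in Ex3abERKO (-0.69 ± 0.18, adjusted p = 0.017), a call lost without Ex3abERKO 4 (adjusted p = 0.0513).

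Nrp2, a co-receptor for VEGFC and semaphorins, was higher in Ex3abERKO than in each single knockout. Its level was 3.15, 3.07, 3.35 and 3.25 on the control arrays, 2.74, 3.07, 3.04 and 2.77 on those of Ex3aERKO, 2.44, 3.02, 3.10 and 3.07 on those of Ex3bERKO, and 3.51, 3.46, 3.88 and 3.77 on those of Ex3abERKO. The Ex3abERKO arrays lay above all 12 others. The difference was 0.75 ± 0.17 (adjusted p = 0.0155) against Ex3aERKO (adjusted p = 0.0507 without Ex3aERKO 1) and 0.75 ± 0.17 (adjusted p = 0.00862) against Ex3bERKO. Against control it was 0.45 ± 0.17 (adjusted p = 0.0708). A second, much dimmer Nrp2 probe, well above background on 4 of 16 arrays, ran the other way (-0.94 and -0.83). The 8 remaining receptors Flt4, Eng, Robo4, Ednrb, Ramp2, Calcrl, Nrp1 and Acvrl1 were called in no comparison of the 6, with differences from control between -0.61 and 0.34. These include the adrenomedullin receptor parts Calcrl and Ramp2 and the BMP9 receptors Acvrl1 and Eng. A dimmer Ednrb probe, well above background on all 16 arrays, lay further below control. It gave -1.16 in Ex3aERKO, -0.85 in Ex3bERKO and -0.74 in Ex3abERKO.

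Among genes of the endothelial surface, junctions and matrix, 7 of 11 fell and 1 rose in Ex3aERKO. Icam2, an adhesion molecule held constantly on endothelium, fell most (probe at chr11:106486772-106486831, mm7). Its level was 2.34, 1.89, 1.90 and 2.65 on the control arrays, 0.37, 0.38, 0.28 and 0.25 on those of Ex3aERKO, 1.49, 1.63, 1.13 and 1.65 on those of Ex3bERKO, and 1.19, 1.02, 0.98 and 1.32 on those of Ex3abERKO. All knockout arrays lay below all controls, and all Ex3aERKO arrays below all others, while Ex3bERKO and Ex3abERKO overlapped. Icam2 differed by -1.87 ± 0.18 (adjusted p = 8.95e-05) in Ex3aERKO, 3.66-fold lower, and by -1.06 ± 0.18 (adjusted p = 0.000935) in Ex3abERKO. Ex3bERKO was at -0.72 ± 0.18 (adjusted p = 0.0823). It was lower in Ex3aERKO than in Ex3bERKO (-1.16 ± 0.18, adjusted p = 0.003) and higher in Ex3abERKO than in Ex3aERKO (0.81 ± 0.18, adjusted p = 0.0145). All of these calls held in each of the 16 fits that left out 1 array.

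The adhesion molecule Pecam1 and the junction cadherin Cdh5 are the usual markers of endothelium. Pecam1 was at -1.61, -1.57, -1.91 and -1.66 on the control arrays, -2.70, -2.78, -2.87 and -2.48 on those of Ex3aERKO, -2.10, -1.83, -2.51 and -2.33 on those of Ex3bERKO, and -2.26, -2.22, -3.24 and -2.04 on those of Ex3abERKO. All Ex3aERKO and Ex3abERKO arrays lay below all controls. It differed by -1.02 ± 0.23 (adjusted p = 0.0144) in Ex3aERKO and -0.75 ± 0.23 (adjusted p = 0.031) in Ex3abERKO. The latter was lost without any of control 1, control 2 or control 4 (adjusted p 0.062 to 0.0736) and with slide as a block (adjusted p = 0.0553). In Ex3bERKO Pecam1 differed by -0.50 and was not called. Cdh5 was at 1.34, 1.21, 1.08 and 1.77 on the control arrays, 0.27, 0.28, 0.22 and 0.36 on those of Ex3aERKO, 0.62, 1.30, 0.66 and 1.24 on those of Ex3bERKO, and 0.98, 0.56, 0.76 and 0.92 on those of Ex3abERKO. Every Ex3aERKO array was below every other array of the 16. Cdh5 was 2.1-fold lower in Ex3aERKO (-1.07 ± 0.19, adjusted p = 0.00344). It was at -0.55 ± 0.19 (adjusted p = 0.0531) in Ex3abERKO and -0.39 ± 0.19 (adjusted p = 0.533) in Ex3bERKO.

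Emcn, a sialomucin of capillaries and veins, and Nos3, the endothelial nitric oxide synthase, were lower in both ERα-lacking groups. Nos3 was at -0.47, -0.63, -0.88 and -0.32 on the control arrays, -1.79, -1.82, -1.94 and -1.99 on those of Ex3aERKO, -1.48, -1.02, -1.31 and -0.54 on those of Ex3bERKO, and -1.40, -1.68, -2.62 and -2.04 on those of Ex3abERKO. The Ex3aERKO and Ex3abERKO arrays lay below all controls, and Ex3bERKO overlapped them through replicate 4. It differed by -1.31 ± 0.25 (adjusted p = 0.00526) in Ex3aERKO and -1.36 ± 0.25 (adjusted p = 0.00159) in Ex3abERKO, and by -0.85 ± 0.25 (adjusted p = 0.0326) between Ex3abERKO and Ex3bERKO, the last lost without any of Ex3bERKO 2, Ex3bERKO 4, Ex3abERKO 3 or Ex3abERKO 4 (adjusted p 0.0596 to 0.111). Emcn was at 2.98, 2.62, 3.03 and 3.26 on the control arrays, 2.08, 1.84, 2.10 and 1.94 on those of Ex3aERKO, 2.53, 3.05, 2.52 and 2.67 on those of Ex3bERKO, and 2.12, 2.34, 2.75 and 2.54 on those of Ex3abERKO. Its Ex3aERKO arrays lay below every array of the other groups. Emcn differed by -0.98 ± 0.18 (adjusted p = 0.00403) in Ex3aERKO and -0.53 ± 0.18 (adjusted p = 0.0457) in Ex3abERKO, the latter held only without control 2, Ex3bERKO 2 or Ex3abERKO 3 when 1 array was left out (otherwise adjusted p 0.0505 to 0.128) and lost with slide as a block (adjusted p = 0.0508).

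The tight junction gene Cldn5 and the matrix protein gene Mmrn2 were called lower in Ex3aERKO alone. Cldn5 was at 3.48, 2.97, 2.83 and 3.29 on the control arrays, 2.34, 2.32, 2.62 and 1.95 on those of Ex3aERKO, 2.52, 3.42, 2.90 and 3.02 on those of Ex3bERKO, and 2.89, 2.75, 2.01 and 2.77 on those of Ex3abERKO. Ex3aERKO lay below control, and both other knockouts overlapped control. The difference was -0.83 ± 0.24 (adjusted p = 0.0474), a call that held only without Ex3bERKO 1, Ex3bERKO 2 or Ex3abERKO 3 when 1 array was left out (otherwise adjusted p 0.0508 to 0.134). Mmrn2 was at 3.66, 3.02, 3.23 and 3.29 on the control arrays, 2.25, 2.48, 2.34 and 2.61 on those of Ex3aERKO, 2.50, 3.20, 2.93 and 3.32 on those of Ex3bERKO, and 3.36, 3.18, 2.82 and 3.12 on those of Ex3abERKO. It too was lower in every Ex3aERKO array than in any control. The difference was -0.88 ± 0.20 (adjusted p = 0.0128) in Ex3aERKO. Between Ex3abERKO and Ex3aERKO it was 0.70 ± 0.20 (adjusted p = 0.0421), held only without control 1, control 2, Ex3bERKO 1, Ex3bERKO 2, Ex3bERKO 4 or Ex3abERKO 3 and lost with slide as a block (adjusted p = 0.085).

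The clotting factor gene Vwf and Cd34, a sialomucin shared by endothelium and stromal cells, ran the other way. Vwf was at 0.26, 0.50, 0.92 and 1.63 on the control arrays, 1.93, 1.98, 2.33 and 1.38 on those of Ex3aERKO, 0.73, 2.41, 2.02 and 1.68 on those of Ex3bERKO, and 2.02, 2.25, 1.80 and 2.42 on those of Ex3abERKO. Ex3abERKO lay above all controls, though control 4 came close. Vwf was 2.45-fold higher in Ex3abERKO (1.29 ± 0.35, adjusted p = 0.0165), lost without control 1 (adjusted p = 0.056). The dimmest Vwf probe was lower instead (-1.50). Cd34 was at 4.27, 3.81, 3.94 and 4.06 on the control arrays, 5.10, 4.94, 5.24 and 4.22 on those of Ex3aERKO, 4.34, 4.95, 4.74 and 4.10 on those of Ex3bERKO, and 5.12, 5.18, 5.68 and 4.93 on those of Ex3abERKO. Ex3abERKO lay above all controls and Ex3aERKO overlapped them through replicate 4. Cd34 was higher by 1.21 ± 0.25 (adjusted p = 0.00306) in Ex3abERKO and 0.86 ± 0.25 (adjusted p = 0.0465) in Ex3aERKO, the latter held only without Ex3aERKO 4, Ex3bERKO 2, Ex3bERKO 4 or Ex3abERKO 3 (otherwise adjusted p 0.0512 to 0.148). Esam, a junction protein, and Plvap, which forms the diaphragms of fenestrated vessels, were called in none of the comparisons with control.

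**Figure D3:**
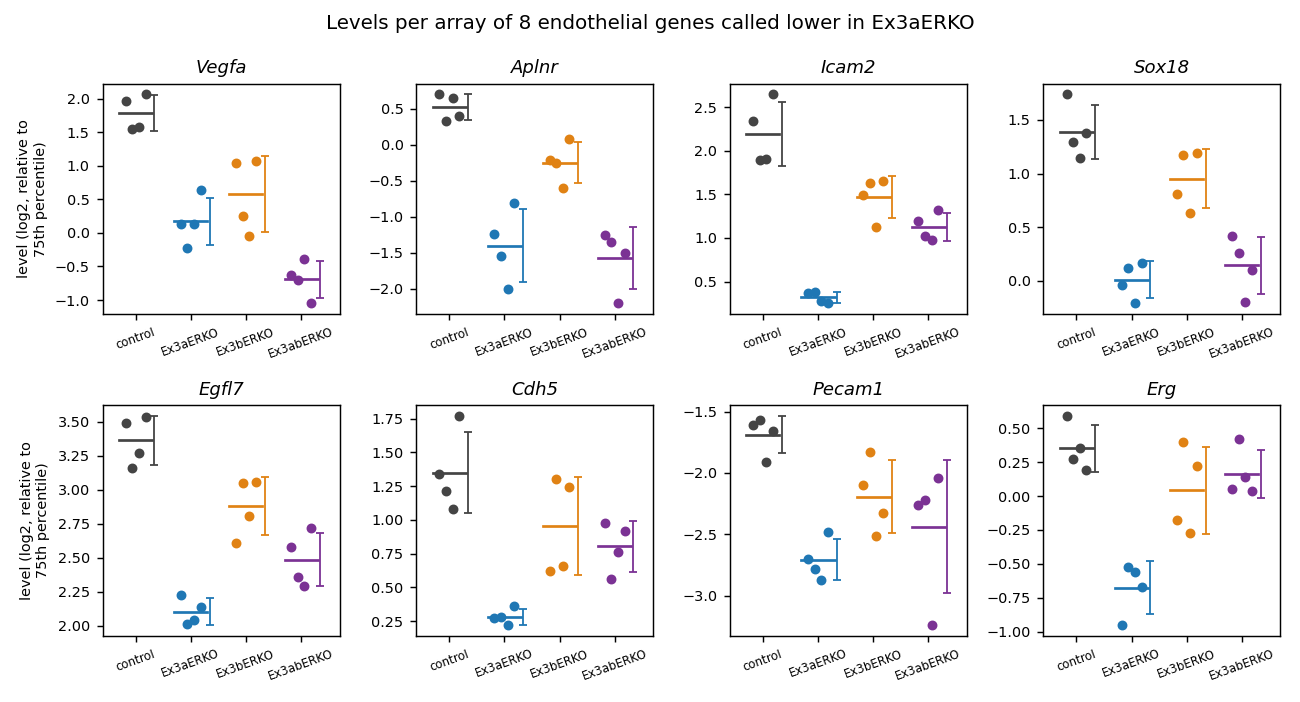
Level of 8 genes on each array (log2 relative to the 75th percentile, y axis) by group (x axis); points are arrays, the line is the group mean and the bar the SD of 4 arrays. All 8 lie below control on every Ex3aERKO array, and Erg overlaps control in Ex3abERKO.

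Of 5 transcription factors, 4 fell in Ex3aERKO and 2 in Ex3abERKO. Sox18 was at 1.74, 1.29, 1.14 and 1.38 on the control arrays, -0.04, 0.12, -0.21 and 0.17 on those of Ex3aERKO, 0.81, 1.17, 0.63 and 1.19 on those of Ex3bERKO, and 0.42, 0.26, -0.20 and 0.10 on those of Ex3abERKO. All Ex3aERKO and Ex3abERKO arrays lay below all controls. Sox18 differed by -1.38 ± 0.19 (adjusted p = 0.000576) in Ex3aERKO, 2.61-fold lower, and by -1.24 ± 0.19 (adjusted p = 0.000413) in Ex3abERKO. It was also lower in Ex3abERKO than in Ex3bERKO (-0.80 ± 0.19, adjusted p = 0.00992) and in Ex3aERKO than in Ex3bERKO (-0.94 ± 0.19, adjusted p = 0.014), the latter lost without Ex3aERKO 3 or Ex3bERKO 4 (adjusted p 0.0515 to 0.0623). Sox7 was at -1.77, -1.69, -1.80 and -1.57 on the control arrays, -3.43, -3.18, -2.97 and -2.35 on those of Ex3aERKO, -2.27, -2.24, -2.73 and -1.77 on those of Ex3bERKO, and -2.79, -1.85, -3.32 and -3.30 on those of Ex3abERKO. All arrays of Ex3aERKO and Ex3abERKO lay below all controls. Sox7 differed by -1.27 ± 0.31 (adjusted p = 0.0213) in Ex3aERKO, lost without any of control 4, Ex3aERKO 1, Ex3aERKO 2 or Ex3aERKO 3 (adjusted p 0.0534 to 0.0665), and by -1.10 ± 0.31 (adjusted p = 0.0203) in Ex3abERKO, lost without Ex3abERKO 4 (adjusted p = 0.0616). The remaining SOXF gene, Sox17, was called in no comparison with control (-0.26 ± 0.35 in Ex3aERKO, -0.09 ± 0.35 in Ex3bERKO and 0.51 ± 0.35 in Ex3abERKO).

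The ETS factors Erg and Ets1 were lower in Ex3aERKO and overlapped control in Ex3abERKO. Erg was at 0.59, 0.27, 0.35 and 0.19 on the control arrays, -0.95, -0.52, -0.56 and -0.67 on those of Ex3aERKO, -0.18, 0.40, -0.27 and 0.22 on those of Ex3bERKO, and 0.05, 0.42, 0.14 and 0.04 on those of Ex3abERKO. Every Ex3aERKO array was lower than every array of the other groups. Erg differed by -1.02 ± 0.17 (adjusted p = 0.00264) in Ex3aERKO, -0.18 ± 0.17 (adjusted p = 0.515) in Ex3abERKO and 0.84 ± 0.17 (adjusted p = 0.0104) between them. It was also lower in Ex3aERKO than in Ex3bERKO (-0.71 ± 0.17, adjusted p = 0.0457), held only without Ex3bERKO 3, Ex3abERKO 2 or Ex3abERKO 3 (otherwise adjusted p 0.0534 to 0.158). Ets1 was at 0.96, 0.69, 0.86 and 1.01 on the control arrays, 0.25, 0.39, 0.45 and -0.16 on those of Ex3aERKO, 0.72, 0.74, 0.42 and 0.58 on those of Ex3bERKO, and 0.78, 0.91, 1.19 and 1.51 on those of Ex3abERKO. Ex3aERKO lay below all controls and Ex3abERKO overlapped them. Ets1 differed by -0.64 ± 0.18 (adjusted p = 0.0414) in Ex3aERKO, held only without control 2, Ex3bERKO 2, Ex3abERKO 1, Ex3abERKO 2, Ex3abERKO 3 or Ex3abERKO 4 (otherwise adjusted p 0.0504 to 0.108) and lost with slide as a block (adjusted p = 0.0564), and was higher in Ex3abERKO than in Ex3aERKO by 0.86 ± 0.18 (adjusted p = 0.0106). The brightest Ets1 probe and another 3 differed in size, from -0.64 to -0.15 in Ex3aERKO. Between Ex3abERKO and Ex3aERKO the other 3 gave 0.15, 0.09 and 0.95.

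ETS and SOX factors bind short motifs in the control regions of endothelial genes, so the sequence before the start of genes on the list was read from RefSeq windows (GRCm38.p6). A window of 250 bases was found for 26 of the 45 genes. Motifs were read on both strands. The ETS core AGGAAG was present in 13 of the 26 (50%), against 32.3% of 27025 genes. The SOX core ACAAAG was present in 6 (23.1%), against 18.6%. The estrogen response element GGTCANNNTGACC was in none of the 26, where 0.0666% of genes hold it, and no match says only that these letters are not in these windows. These matches were counted over all listed windows of a gene, each of which ends at the gene's start. Windows with an ETS core came both from genes called lower in the 2 groups lacking ERα (Tie1, Flt1, Egfl7 and Emcn) and from genes called in no comparison with control (Eng, Robo4, Selp, Calcrl and Nrp1). Dll4, called lower in both groups lacking ERα, and Vegfa, called lower in all 3 groups, hold none, so no link between motif and call is read from these windows. As examples, those of Tie1, Flt1, Egfl7, Emcn and Vegfa are printed 5′ to 3′ with ETS cores in capitals, the first listed window being shown for Egfl7 and Vegfa, and a match does not show binding.
Tie1 (chr4:118489850-118490099, minus strand): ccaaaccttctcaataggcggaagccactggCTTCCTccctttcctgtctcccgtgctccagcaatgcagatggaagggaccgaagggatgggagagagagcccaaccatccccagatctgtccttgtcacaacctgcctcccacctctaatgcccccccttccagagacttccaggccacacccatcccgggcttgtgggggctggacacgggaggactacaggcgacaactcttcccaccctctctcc
Flt1 (chr5:147726012-147726261, minus strand): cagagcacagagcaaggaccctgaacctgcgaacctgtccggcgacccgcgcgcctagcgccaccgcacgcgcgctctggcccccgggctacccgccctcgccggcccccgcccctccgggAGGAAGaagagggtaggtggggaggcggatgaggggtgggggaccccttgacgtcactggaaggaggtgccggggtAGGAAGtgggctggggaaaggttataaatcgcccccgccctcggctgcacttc
Egfl7 (chr2:26580833-26581082, plus strand): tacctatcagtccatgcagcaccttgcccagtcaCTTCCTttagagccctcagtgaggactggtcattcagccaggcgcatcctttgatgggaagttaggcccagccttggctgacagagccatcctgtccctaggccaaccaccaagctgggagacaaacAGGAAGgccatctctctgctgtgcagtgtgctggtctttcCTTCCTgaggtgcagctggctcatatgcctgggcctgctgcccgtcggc
Emcn (chr3:137340828-137341077, plus strand): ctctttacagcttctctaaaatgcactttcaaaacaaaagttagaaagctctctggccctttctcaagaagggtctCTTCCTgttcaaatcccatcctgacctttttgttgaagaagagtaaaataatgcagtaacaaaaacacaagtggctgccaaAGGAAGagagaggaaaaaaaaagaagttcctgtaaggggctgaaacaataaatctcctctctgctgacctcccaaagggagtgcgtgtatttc
Vegfa (chr17:46032378-46032627, minus strand): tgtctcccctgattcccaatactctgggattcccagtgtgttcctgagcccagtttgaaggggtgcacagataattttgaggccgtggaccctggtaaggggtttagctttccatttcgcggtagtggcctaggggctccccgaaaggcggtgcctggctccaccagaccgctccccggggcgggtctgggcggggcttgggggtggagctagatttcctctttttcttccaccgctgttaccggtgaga

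Of the 3 tested leukocyte adhesion genes, Vcam1 rose in Ex3aERKO and Icam1 in Ex3abERKO. Icam1, which leukocytes bind on inflamed endothelium and which macrophages also express, was at 0.60, 0.46, 0.32 and 0.74 on the control arrays, 0.86, 1.68, 1.36 and 0.84 on those of Ex3aERKO, 0.53, 1.33, 0.98 and 0.41 on those of Ex3bERKO, and 1.82, 2.28, 2.08 and 2.13 on those of Ex3abERKO. All Ex3abERKO arrays lay above all 12 others. Icam1 was 2.92-fold higher in Ex3abERKO than in control (1.55 ± 0.23, adjusted p = 0.000386), and higher than in Ex3bERKO by 1.27 ± 0.23 (adjusted p = 0.00238) and than in Ex3aERKO by 0.89 ± 0.23 (adjusted p = 0.028). The last was lost without any of Ex3aERKO 1, Ex3aERKO 4, Ex3abERKO 2 or Ex3abERKO 4 (adjusted p 0.0633 to 0.09). A second, dimmer Icam1 probe gave 0.61 against control, 0.42 against Ex3bERKO and -0.07 against Ex3aERKO. Vcam1, an adhesion molecule also made by stromal cells, was at 0.98, 1.15, 1.51 and 2.59 on the control arrays, 4.00, 3.76, 3.55 and 2.98 on those of Ex3aERKO, 2.32, 3.84, 4.16 and 2.75 on those of Ex3bERKO, and 1.89, 2.93, 3.48 and 2.72 on those of Ex3abERKO. Ex3aERKO lay above all controls, and Ex3bERKO and Ex3abERKO overlapped them through control 4. Vcam1 was 4.04-fold higher in Ex3aERKO (2.01 ± 0.45, adjusted p = 0.0134) and at 1.71 ± 0.45 (adjusted p = 0.104) in Ex3bERKO and 1.20 ± 0.45 (adjusted p = 0.0731) in Ex3abERKO. A second Vcam1 probe, also above background on all 16 arrays, gave 4.11, 3.66 and 2.44 in the same 3 groups, so the size differs by probe. Selp, stored in endothelium and platelets, was called in no comparison with control.

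Of the lymphatic genes, Lyve1 and Pdpn were higher and Prox1, the defining transcription factor of lymphatic endothelium, was not called. Lyve1, a hyaluronan receptor that tissue macrophages also carry, was at -0.97, -1.41, -1.27 and -0.55 on the control arrays, -0.66, -0.22, 0.36 and -1.51 on those of Ex3aERKO, -0.36, 0.47, -0.48 and 0.05 on those of Ex3bERKO, and 1.24, 1.16, 0.59 and 1.87 on those of Ex3abERKO. All Ex3abERKO arrays lay above the 12 others. Against control, Lyve1 differed by 0.54 in Ex3aERKO and 0.97 in Ex3bERKO, and neither was called. Lyve1 was 4.8-fold higher in Ex3abERKO than in control (2.26 ± 0.37, adjusted p = 0.000735) and higher than in Ex3aERKO by 1.72 ± 0.37 (adjusted p = 0.0119). A dimmer Lyve1 probe gave 1.74 and 0.93 there, and 0.65 against Ex3bERKO. Against Ex3bERKO the difference of 1.29 ± 0.37 (adjusted p = 0.0275) was lost with slide as a block (adjusted p = 0.165) and without any of Ex3bERKO 1, Ex3bERKO 3, Ex3bERKO 4, Ex3abERKO 1, Ex3abERKO 2 or Ex3abERKO 4 (adjusted p 0.0521 to 0.0797). Pdpn, podoplanin, which stromal and epithelial cells also make, was at -2.90, -2.39, -2.80 and -2.84 on the control arrays, -1.24, -0.85, -1.18 and -1.83 on those of Ex3aERKO, -1.49, -1.07, -1.09 and -2.50 on those of Ex3bERKO, and -0.98, -1.04, -2.01 and -1.23 on those of Ex3abERKO. Ex3aERKO and Ex3abERKO lay above all controls, and Ex3bERKO overlapped them through replicate 4. Pdpn differed from control by 1.20 in Ex3bERKO, which was not called. It was higher by 1.46 ± 0.32 (adjusted p = 0.0116) in Ex3aERKO and 1.42 ± 0.32 (adjusted p = 0.00577) in Ex3abERKO, and neither was called with normexp correction (adjusted p = 0.277 and 0.181). Prox1 was at -2.30, -2.77, -3.12 and -2.56 on the control arrays, -3.28, -2.53, -2.92 and -4.38 on those of Ex3aERKO, -2.58, -1.91, -3.34 and -2.71 on those of Ex3bERKO, and -2.34, -2.09, -2.06 and -1.91 on those of Ex3abERKO. It overlapped control in each group. Prox1 differed by -0.59 ± 0.36 (adjusted p = 0.392) in Ex3aERKO, 0.05 ± 0.36 (adjusted p = 0.995) in Ex3bERKO and 0.59 ± 0.36 (adjusted p = 0.273) in Ex3abERKO. A dimmer Prox1 probe, well above background on all 16 arrays, gave -0.73, -0.73 and -0.77, of opposite sign in Ex3abERKO. The dimmest, well above background on 9 arrays, gave 0.01, 0.31 and -0.47.

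With normexp background correction, which moved the median of all features to -0.339 in Ex3aERKO and -0.361 in Ex3abERKO, several further calls were lost. In Ex3aERKO these were Ets1 (adjusted p = 0.185) and Cldn5 (0.122), beside Kdr and Pdpn. In Ex3abERKO they were Tek (adjusted p = 0.0624) and Emcn (0.159), beside Dll4 and Pdpn. Between Ex3abERKO and Ex3aERKO, Icam1, Nrp2 and Mmrn2 were lost at adjusted p-values of 0.0553, 0.0633 and 0.0604. Between Ex3abERKO and Ex3bERKO, Tek, Nos3 and Nrp2 were lost (0.0962, 0.0782 and 0.0612), and between Ex3aERKO and Ex3bERKO, Erg was (0.0943). All of these kept their direction.

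Set directly against one another, the 2 groups lacking ERα differed in 9 of the 44 genes. In Ex3abERKO 7 were higher than in Ex3aERKO (Erg, Ets1, Icam1, Icam2, Lyve1, Nrp2 and Mmrn2) and 2 lower (Angpt2 and Apln), where 7.78% of all features were called, 4.43% higher and 3.35% lower. Every Ex3abERKO array lay above every Ex3aERKO array in 12 genes and below in 3, against 7.84% and 6.1% of all features. The median difference was 0.32, against -0.01 over all features. In the comparison of Ex3abERKO with Ex3bERKO, 3 genes were higher (Icam1, Lyve1 and Nrp2) and 6 lower (Tek, Nos3, Sox18, Vegfa, Angpt2 and Aplnr), where 16.7% of all features were called, 8.26% higher and 8.43% lower. These shares lie near the background. The groups did not overlap in 10.3% of all features with Ex3abERKO below, and in 9.2% with it above, against 6 and 4 of the genes. Ex3aERKO was lower than Ex3bERKO in 5 genes (Egfl7, Erg, Sox18, Icam2 and Aplnr), against 1.7% of all features. All its arrays lay below all of Ex3bERKO in 13 genes, against 5.27% of all features. Without the 3 arrays that stand apart, 5, 5 and 1 genes were called in these comparisons, all among those named.

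The interaction asks whether the difference between Ex3abERKO and Ex3aERKO equals that between Ex3bERKO and control. It was called above 0 in 6 of the 44 genes and below 0 in 2, where 3.61% of all features were called, 1.84% above 0 and 1.78% below. Icam2 gave 1.53 ± 0.26 (adjusted p = 0.00519), Erg 1.15 ± 0.25 (adjusted p = 0.0201) and Angpt2 -3.62 ± 0.74 (adjusted p = 0.0155), and these calls held in all 16 fits that left out 1 array. The median over the endothelial genes was 0.60, against 0.001 over all features. Ets1 (1.13 ± 0.25, adjusted p = 0.0252), Nrp2 (1.05 ± 0.24, adjusted p = 0.0264), Egfl7 (0.86 ± 0.21, adjusted p = 0.0386), Dll4 (0.89 ± 0.23, adjusted p = 0.0445) and Vcam1 (-2.53 ± 0.64, adjusted p = 0.0436) were less firm. With slide as a block, 3 calls remained (Icam2, Erg and Angpt2), and without the 3 arrays that stand apart 1 did (Icam2). The other probes gave interactions of -0.03, 0.31 and 1.11 for Ets1, and the second Vcam1 probe gave -5.33. Ets1 was lost without any of control 1, control 3, control 4 or Ex3bERKO 3, and Nrp2 without any of control 3, control 4, Ex3aERKO 1 or Ex3abERKO 4. Egfl7, Dll4 and Vcam1 were called in 4, 3 and 5 of the 16 fits that left out 1 array. Egfl7 was called without control 2, Ex3bERKO 2, Ex3bERKO 4 or Ex3abERKO 3, Dll4 without control 2, Ex3aERKO 4 or Ex3abERKO 3, and Vcam1 without control 4, Ex3aERKO 4, Ex3bERKO 1, Ex3bERKO 4 or Ex3abERKO 3.

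**Figure D4:**
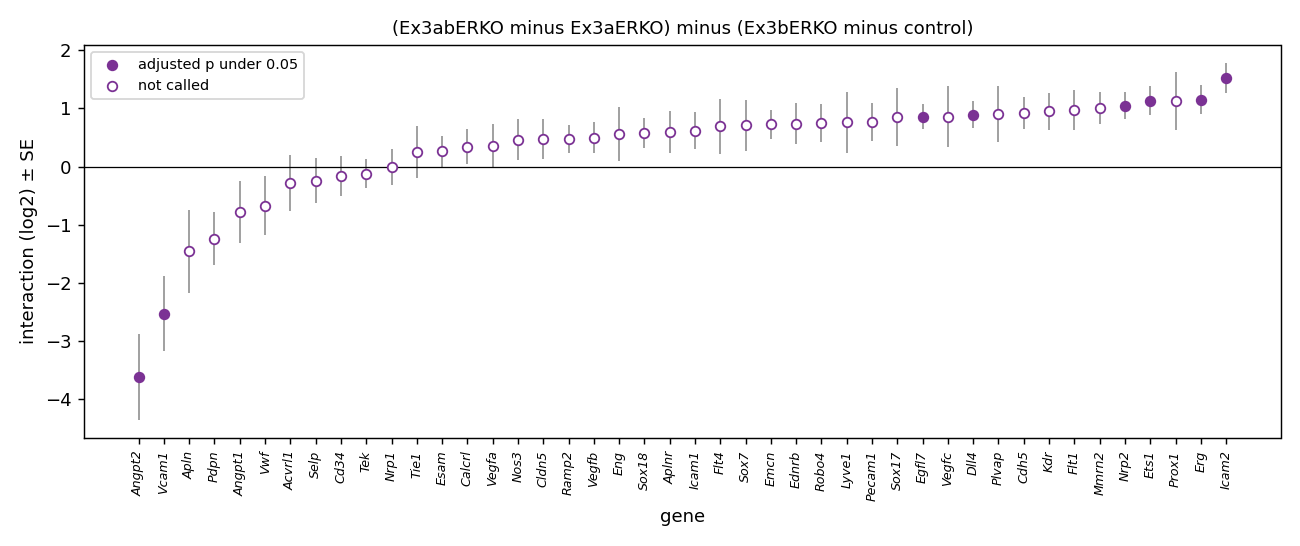
Interaction of the 2 receptor losses (log2, y axis) for each of the 44 tested endothelial genes (x axis, ordered by value), with the standard error of the model as a bar. Filled points are the 8 called genes, 6 above 0 and 2 below.

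Other genes of the same pathways were looked at from a list of 28, of which 25 entered the test. In Ex3aERKO 3 rose and 3 fell, and in Ex3abERKO 6 rose and 4 fell, where 3.86% and 4.2% of all features rose and fell in the first and 10.7% and 11.7% in the second. The number that fell in Ex3abERKO is near that background. The median in Ex3abERKO was -0.07, against -0.105 over all features. In Ex3bERKO limma called none, with 3 at an unadjusted p under 0.05. Ramp3, which with Calcrl forms an adrenomedullin receptor, fell in both ERα-lacking groups (-1.30 ± 0.19, adjusted p = 0.00116 in Ex3aERKO, -1.38 ± 0.19, adjusted p = 0.000276 in Ex3abERKO). Its relative Ramp1 rose in Ex3aERKO (2.45 ± 0.52, adjusted p = 0.0101). Sema3a, a guidance cue that binds Nrp1, rose in both (1.31 ± 0.25, adjusted p = 0.00489, and 1.72 ± 0.25, adjusted p = 0.000327). The lipase inhibitor Angptl4 fell in both (-0.82 ± 0.18, adjusted p = 0.0129, and -1.10 ± 0.18, adjusted p = 0.000884). The Notch target Hey2 fell in Ex3abERKO (-2.36 ± 0.32, adjusted p = 0.000218) and was lower there than in Ex3aERKO (-2.21 ± 0.32, adjusted p = 0.00141). Without the 3 arrays that stand apart, 0 rose and 1 fell in Ex3aERKO while 3 rose and 3 fell in Ex3abERKO.

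A list of 34 further blood endothelial genes split by group. In Ex3aERKO 1 rose and 9 fell (median -0.25), and in Ex3abERKO 10 rose and 5 fell (median 0.44). Of all features, 3.86% rose and 4.2% fell in Ex3aERKO, and 10.7% rose and 11.7% fell in Ex3abERKO, so the 1 that rose in the first and the 5 that fell in the second are near the background. Ex3abERKO was higher than Ex3aERKO in 11, against 4.43% of all features. It was higher than Ex3bERKO in 12, against 8.26% of all features, and lower in 1, against 8.43%. The genes with the smallest adjusted p in Ex3aERKO all fell: Nostrin, a regulator of Nos3 (-1.16 ± 0.19, adjusted p = 0.00225), the adhesion receptor Adgrl4 (-1.07 ± 0.18, adjusted p = 0.00278), Arhgef15 (-1.52 ± 0.28, adjusted p = 0.00427) and Ushbp1 (-1.34 ± 0.27, adjusted p = 0.00712). In Ex3abERKO they were Cd36, a fatty acid transporter that macrophages and fat cells also express (3.09 ± 0.43, adjusted p = 0.000272), the blood cell factors Lyl1 (1.83 ± 0.29, adjusted p = 0.000555) and Gata2 (1.42 ± 0.24, adjusted p = 0.000864), and Arhgef15 (-1.53 ± 0.28, adjusted p = 0.00154). The interaction was called above 0 in 6 of the 34, against 1.84% of all features, led by Cd93 (1.81 ± 0.31, adjusted p = 0.00617), Tal1 (1.55 ± 0.31, adjusted p = 0.015), Elk3 (1.24 ± 0.26, adjusted p = 0.0173) and Nostrin (1.22 ± 0.27, adjusted p = 0.0227). In Ex3bERKO limma called none, with 8 at an unadjusted p under 0.05. When the 3 arrays that stand apart were left out, 2 fell in Ex3aERKO, and 6 rose and 2 fell in Ex3abERKO.

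Of 12 further lymphatic genes, 11 entered the test. In Ex3aERKO 1 fell and 0 rose, where 4.2% of all features fell and 3.86% rose. In Ex3abERKO 1 fell and 2 rose, where 11.7% of all features fell and 10.7% rose. These counts are near the background. The median difference was -0.06 in Ex3aERKO, against -0.083 over all features, and 0.37 in Ex3bERKO, against 0.01. In Ex3abERKO it was 0.84, against -0.105, so the list lay higher there than its calls show. In Ex3bERKO limma called none, with 0 at an unadjusted p under 0.05. Itga9, an integrin of lymphatic valves, fell in Ex3aERKO (-1.60 ± 0.17, adjusted p = 0.000137) and Ex3abERKO (-0.99 ± 0.17, adjusted p = 0.00092). Reln (1.14 ± 0.34, adjusted p = 0.0247) and Adamts3, a protease that processes Vegfc (0.84 ± 0.28, adjusted p = 0.0449), rose in Ex3abERKO. Tbx1 (1.78 ± 0.42, adjusted p = 0.0195) and Itga9 (0.62 ± 0.17, adjusted p = 0.0357) were higher in Ex3abERKO than in Ex3aERKO, against 4.43% of all features. With the 3 arrays left out, 1 gene fell against control in Ex3aERKO and 1 in Ex3abERKO, and 0 rose.

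Markers of other cell types moved with these groups, and their part in the results was not tested. Of all features, 3.86% rose and 4.2% fell in Ex3aERKO. In Ex3bERKO these shares were 0.398% and 0.656%, and in Ex3abERKO 10.7% and 11.7%. A count of 1 gene in Ex3aERKO or Ex3abERKO is near that background. The summed signal of 10 macrophage markers, as a multiple of the 75th percentile, was 159 to 217 in control. It was 244 to 302 in Ex3aERKO, 185 to 270 on the Ex3bERKO arrays, and 335 to 362 in Ex3abERKO, where 9 of the 10 rose. Of 8 lymphocyte markers, 6 rose in Ex3abERKO, where their sum was 14.7 to 36.9 against 2.92 to 6.60 in control. In the same group, where Icam1, Lyve1, Vwf, Cd34 and Pdpn rose, 4 of 7 stroma markers rose and 1 fell (sum 220 to 432, against 125 to 180 in control). Luteal markers, the cells that make much of the ovary's Vegfa, fell in 3, 2 and 6 of 8 in Ex3aERKO, Ex3bERKO and Ex3abERKO; their sum was 321 to 613 in control and, in the same order, 165 to 227, 170 to 336 and 58.8 to 152. Granulosa cells also make Vegfa. Of 8 granulosa markers, 1 rose and 1 fell in Ex3aERKO (sum 119 to 267, against 92.5 to 172 in control), none was called by limma in Ex3bERKO (0 at an unadjusted p under 0.05, sum 77.2 to 119), and 5 fell in Ex3abERKO (sum 22 to 67.3). Of 10 pericyte and mural markers, 4 fell and 1 rose in Ex3aERKO. In Ex3abERKO 2 fell and 1 rose, near the share of all features. Their sum was 39.7 to 60.5 in control and 39.6 to 69.9 in Ex3aERKO, so it overlapped control there. It was 35.0 to 49.2 in Ex3bERKO and 55.6 to 105 in Ex3abERKO. Bright markers weigh most in a sum, such as Acta2 (mean level 4.89 in control and 4.97 in Ex3aERKO). The median difference of the 10 markers in Ex3aERKO was -0.85, against -0.083 over all features. All 7 tested oocyte markers fell in Ex3aERKO and 6 in Ex3abERKO, and 3 of 5 adipocyte markers fell in Ex3aERKO (sum 0.850 to 1.40, against 2.22 to 8.26 in control). Of 5 theca and steroid-making interstitial markers, 2 rose and 1 fell in both Ex3aERKO and Ex3abERKO. Their sum was at least 111 in Ex3aERKO and at most 25.5 in control, while that of Ex3abERKO overlapped control. The sum of 6 platelet markers was at most 2.69 in control, at least 3.26 in Ex3aERKO and at least 9.59 in Ex3abERKO. That of 7 surface epithelium markers was at most 19.5 in control, at least 20.9 in Ex3aERKO and at least 27.6 in Ex3abERKO. No marker of these lists was at background on all arrays of a group.

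**Figure D5:**
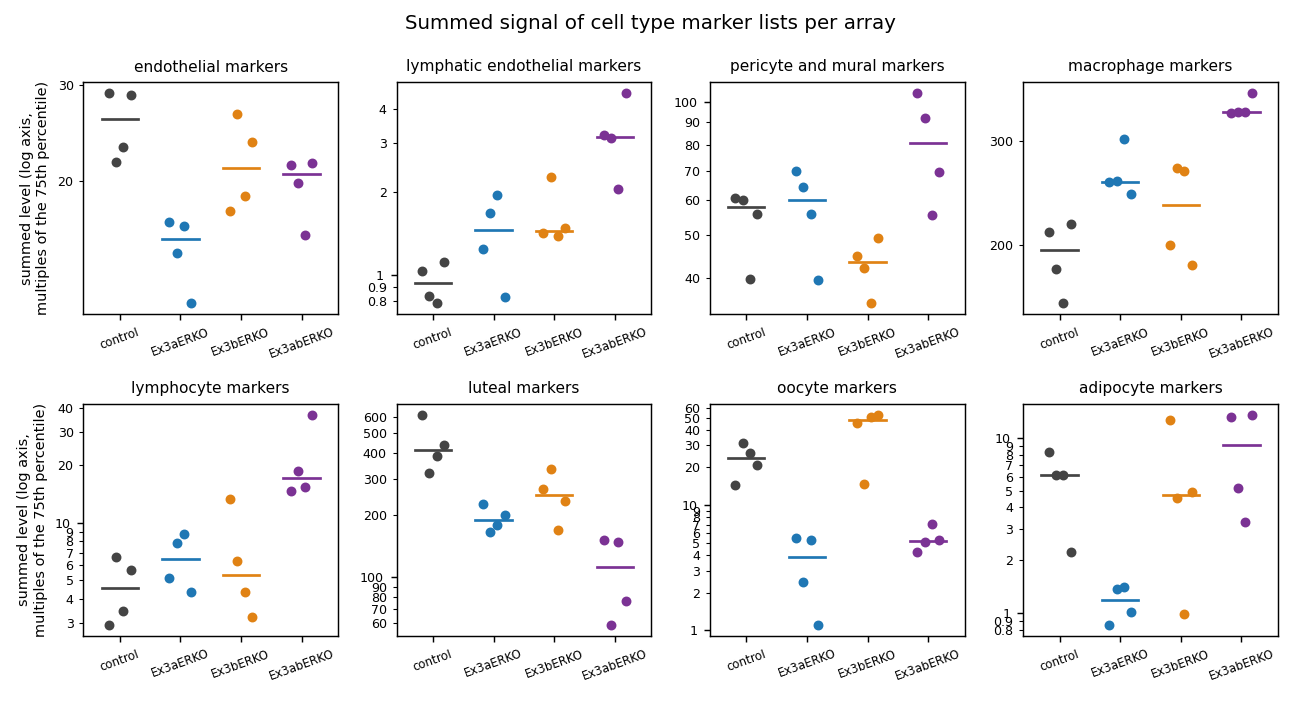
Summed signal of 8 marker lists on each array (multiples of the array's 75th percentile, log y axis) by group (x axis); points are arrays and the line is the group median. Endothelial markers have their lowest median in Ex3aERKO (12 to 16.9, against 21.7 to 29.0 in control), while macrophage and lymphocyte markers are highest in Ex3abERKO.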

How the data were processed

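RNA of whole ovaries was labelled with Cy3 and hybridised to single-colour arrays, 16 in all, 4 in each of 4 groups taken from the labels. The deposited scanner files give a background-subtracted processed signal, a linear intensity per spot, made with Agilent Feature Extraction 9.5 per the submitters' processing notes; the sources used here give no further step. The deposited series table holds the same linear intensities, neither logged nor centred: all its 41174 probes equalled the mean processed signal of the probe's spots within a relative difference of 0.0001 on each array, with column medians of 149.5 to 252.7.

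From the deposited intensities, log2 values minus each array's 75th percentile were computed here, spots flagged as outliers were dropped, and a probe was kept if well above background on at least 4 of 16 arrays. The brightest kept probe stood for a gene. One mean per group was fitted with limma 3.58.1 in R 4.3.3 over 24372 features and all 16 arrays (12 residual degrees of freedom), with Benjamini-Hochberg adjustment over all features; "called", "rose" and "fell" mean an adjusted p under 0.05. Comparisons were the 6 pairs of groups and the interaction. Of the probes, 22951 were named by accession, 6659 by symbol and 3109 by an older symbol. Probe positions are those of the files (mm7); exon or UTR was not looked up. On simulated data the fit recovered 42% of changes of 1 (log2) and 81% of changes of 2 between Ex3aERKO and control, and 24% and 75% between Ex3bERKO and control. Every comparison was simulated with the same spread per feature, so the gap between these figures comes from the random draw. The simulated noise was independent between arrays, without the likeness of arrays on 1 slide. The figures therefore do not give the share of real changes found here. The number of arrays limits the precision.

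The members and lists were chosen with earlier results of these data known. Called members are given with the value on every array, and the others by counts and ranges. Pecam1, Cdh5, Kdr, Flt1, Tek, Tie1, Vegfa, Lyve1, Prox1 and Pdpn are always given. From the further lists, up to 4 called genes with the smallest adjusted p are named per comparison with control and for the interaction. For comparisons between knockout groups only some of these genes are named. Slides were told apart by barcode, and the arrays of 1 slide share a scan time. Of the 4 slides, slide 2 holds no Ex3bERKO and slide 3 no Ex3abERKO array. Slide was not a term of the main fit and entered only alternative fits and the differences within slides. Alternatives were slide or replicate as a block, normexp background correction, median or quantile scaling, other filters on dim probes, only the groups compared, array weights, another prior variance, the mean of all probes, and leaving out arrays.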

Additional observations from a re-analysis of the deposited data

Results flagged for a closer look

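In 7 of 180 groups of 4 arrays, each a gene in 1 genotype, 1 array lay far from the other 3; chance gives about 1 in 20. Flt4 was at -2.46 in control 1, against -3.17 to -3.06 in the other controls. Robo4 was at 2.20 in control 2, against 2.77 to 2.87. Angpt2 was at 5.23 in Ex3aERKO 4, against 2.14 to 2.67. Nrp2 was at 2.44 in Ex3bERKO 1, against 3.02 to 3.10. In Ex3abERKO 3, Tie1 was at -3.30, against -1.75 to -1.61, and Cldn5 at 2.01, against 2.75 to 2.89. Sox17 was at 1.26 in Ex3abERKO 2, the array highest in oviduct genes, against -0.49 to -0.27.

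By the test of the interaction, the difference between Ex3abERKO and Ex3aERKO was unlike that between Ex3bERKO and control in 8 genes. The interaction was 1.53 for Icam2, 1.15 for Erg, 1.13 for Ets1, 1.05 for Nrp2, 0.89 for Dll4 and 0.86 for Egfl7, and -2.53 for Vcam1 and -3.62 for Angpt2. Of these, Icam2 kept its call without Ex3aERKO 2, Ex3abERKO 2 and control 4 together.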

How the results depend on the processing

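Of 72 called pairs of gene and comparison, 24 kept their call in every fit. Counts within 1.5 times the main one are not repeated. In Ex3bERKO against control the main count of 1 became 0 with slide as a fixed block, normexp correction, median scaling, only the groups compared, or without the 3 arrays that stand apart, 2 with trend and robust or with the mean of all kept probes, and 5 with array weights. The interaction count of 8 became 3 with slide as a fixed block or normexp, 5 with the replicate block or the mean of all kept probes, 13 with array weights, and 1 without the 3 arrays. Between Ex3abERKO and Ex3aERKO, 9 became 2 with only the groups compared, 5 with the mean of all probes and 5 without the 3 arrays. Ex3aERKO against Ex3bERKO went from 5 to 10 with array weights, 1 with only the groups compared and 1 without the 3 arrays. Without the 3 arrays Ex3aERKO against control fell from 21 to 9, and Ex3abERKO against Ex3bERKO from 9 to 5. Leaving out 1 array at a time gave 16 to 22 calls for Ex3aERKO, 0 to 2 for Ex3bERKO and 14 to 20 for Ex3abERKO against control, 6 to 11 for Ex3abERKO against Ex3aERKO, 6 to 10 against Ex3bERKO, 1 to 7 for Ex3aERKO against Ex3bERKO and 3 to 12 for the interaction. The mean of all kept probes reversed Nrp2, to -0.09 against Ex3aERKO, -0.04 against Ex3bERKO and -0.06 in the interaction; its second probe is near background. Other causes were not tested. Replicate numbers did not pair the arrays: over 24 same-numbered pairs the correlation of deviations had a median of -0.07, with 7 over 0.1, against a median of 0.28 for 22 same-slide pairs. The interaction needs all 4 groups, so it has no fit on only the groups compared.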
